A study of Homo sapiens with 9 samples.

Results

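Aminoacyl-tRNA synthesis was examined in HCT116 cells, a human colorectal carcinoma line, through 44 of the 33861 genes in the deposited expression table. The members are the nuclear genes to which the table assigns the KEGG pathway of aminoacyl-tRNA biosynthesis. No gene of the mitochondrial genome carried that annotation. By their names, 21 of the 44 are cytosolic aminoacyl-tRNA synthetases, 17 are mitochondrial synthetases and 6 are other enzymes of the pathway. TARS3 was counted as cytosolic, and the products of GARS1 and KARS1 work in both compartments. All 44 genes passed the filter on low counts.

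RNA was sequenced from 9 libraries in 3 groups of 3. NC cells were the control, and neither their handling nor their time in culture is stated. Activin cells received activin A, a ligand of the TGF-β family, at 100 ng/mL for 5 days. Activin+HGF cells received the same and, after it, hepatocyte growth factor (HGF), the ligand of the receptor MET, at 20 ng/mL for 5 days. No group had activin followed by 5 days without HGF, and none received HGF alone. Whether activin stayed in the medium during HGF is not stated. HGF, the longer time in culture and a possible end of activin exposure therefore cannot be told apart. The 3 libraries of a group came from 1 cell line, and nothing says that they were separate cultures. The p-values then measure only the spread between these libraries, which may be technical.

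Aminoacyl-tRNA synthetases join each amino acid to its tRNA and so supply the ribosome with charged tRNA. Human cells hold separate sets of these enzymes for the cytosol and for the mitochondria, all encoded in the nucleus, and the mitochondrial set serves only the few proteins made inside the organelle. Several cytosolic synthetases sit together in a large multisynthetase complex. Many cytosolic synthetase genes are known targets of ATF4, the transcription factor of the amino acid response, and WARS1 is known as an interferon-induced gene.

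The table gave 57453977 to 77016167 counts per library. EPCAM, CDH1, KRT8 and KRT18, which mark epithelial cells, lay between 9.77 and 180.48 FPKM (the fragments of a gene relative to its length and to the library's depth) in the 9 libraries. Markers of leukocytes and of endothelium stayed at or below 0.4 FPKM, and DCN and COL1A2 of fibroblasts at or below 0.03 FPKM, while COL1A1 lay at 2.22 to 5.8 FPKM. A pair of libraries stood apart. Activin 2 differed from the other Activin libraries in a way that followed the GC content of the transcripts (r = 0.502 across 14675 genes and 0.806 across the 44 members, genes not being independent replicates), and it was the lowest of its group for 18 members and the highest for 23. Activin+HGF 1 was the lowest of its group for 28 of the 44 members. Results were therefore also computed without both libraries, a choice made after the data were seen that leaves 2 libraries in each treated group. Beyond leaving them out, their part in single results was not tested. NC 2 followed GC content in the same direction as Activin 2 (r = 0.207 across the genes and 0.662 across the members). It was the highest of its group for 22 members and stayed in the fit without the pair. Median GC content was 46.8% for the cytosolic synthetases, 50.8% for the mitochondrial ones and 43.9% for the other enzymes. The part of this trend in differences between the classes was not tested.

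RefSeq promoter windows, which run from 250 bases before to 50 bases after a transcript start (GRCh38.p14), were at hand for 34 of the 44 members. They were searched on both strands for TGATGNAA, the composite element of C/EBP and ATF factors to which ATF4 binds. It was found for 7 of the 16 cytosolic synthetases with a window (AARS1, CARS1, GARS1, IARS1, MARS1, NARS1 and TARS1), for 1 of 14 mitochondrial synthetases (YARS2) and for 0 of the 4 other enzymes, against 3.62% of the 35116 windows of all genes. A gene with several windows counted once. Of the 8 members with a match, only AARS1 and CARS1 rose in the comparisons given below. GARS1, MARS1 and NARS1 were called in none of them. IARS1 and TARS1 fell with activin and HGF, and YARS2 fell in both comparisons with NC. The windows of AARS1 and CARS1 are shown with that of IARS1, which carries the same letters and did not rise. SARS1 is shown as a gene that rose without the letters in this window, and the second window of WARS1 for its interferon-type letters. Capitals mark TTGCATCA in AARS1, CARS1 and IARS1, and TTCTGAGAA and GAAACTGAA in WARS1.
AARS1 promoter window, chr16:70289457-70289756, minus strand: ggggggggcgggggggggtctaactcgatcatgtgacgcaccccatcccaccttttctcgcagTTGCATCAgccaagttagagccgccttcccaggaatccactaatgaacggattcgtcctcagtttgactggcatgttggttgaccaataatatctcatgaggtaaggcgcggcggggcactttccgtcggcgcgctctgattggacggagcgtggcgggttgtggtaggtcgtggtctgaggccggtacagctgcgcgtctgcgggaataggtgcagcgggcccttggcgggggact
CARS1 promoter window, chr11:3057374-3057673, minus strand: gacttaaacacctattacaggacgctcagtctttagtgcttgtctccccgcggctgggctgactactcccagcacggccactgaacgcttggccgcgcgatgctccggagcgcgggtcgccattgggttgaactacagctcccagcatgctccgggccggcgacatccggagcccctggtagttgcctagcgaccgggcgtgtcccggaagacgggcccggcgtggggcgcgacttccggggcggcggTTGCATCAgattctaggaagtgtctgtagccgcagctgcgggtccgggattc
IARS1 promoter window, chr9:92293648-92293947, minus strand: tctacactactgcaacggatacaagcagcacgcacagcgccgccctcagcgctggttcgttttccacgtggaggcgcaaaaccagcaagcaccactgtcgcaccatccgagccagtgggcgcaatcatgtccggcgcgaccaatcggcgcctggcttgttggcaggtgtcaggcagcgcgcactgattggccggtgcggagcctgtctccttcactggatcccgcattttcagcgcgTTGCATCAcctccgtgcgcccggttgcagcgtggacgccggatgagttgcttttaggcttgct
SARS1 promoter window, chr1:109213643-109213942, plus strand: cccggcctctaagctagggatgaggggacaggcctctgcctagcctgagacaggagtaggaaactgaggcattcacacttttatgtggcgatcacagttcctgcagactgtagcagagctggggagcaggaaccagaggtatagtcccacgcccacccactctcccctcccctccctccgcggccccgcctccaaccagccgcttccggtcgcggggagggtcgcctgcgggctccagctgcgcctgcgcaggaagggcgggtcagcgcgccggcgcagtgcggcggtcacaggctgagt
WARS1 promoter window, chr14:100375298-100375597, minus strand: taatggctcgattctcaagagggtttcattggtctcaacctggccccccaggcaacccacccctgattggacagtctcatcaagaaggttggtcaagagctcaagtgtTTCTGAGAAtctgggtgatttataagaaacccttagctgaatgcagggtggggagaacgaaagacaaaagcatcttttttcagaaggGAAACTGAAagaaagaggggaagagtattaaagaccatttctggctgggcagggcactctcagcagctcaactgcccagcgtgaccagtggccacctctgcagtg
In AARS1 the element began 187 bases before the start. In CARS1, MARS1 and IARS1 it began 2, 4 and 13 bases before it, so its place differed between genes. The WARS1 window held GAAANNGAA, the core of the interferon-stimulated response element, 55 bases before the start and TTCNNNGAA, the element of STAT factors, 142 bases before it. GAAANNGAA was found for 3 of 16 cytosolic and 1 of 14 mitochondrial synthetases, against 8.11% of all windows, and TTCNNNGAA for 3 of 16 and 2 of 14, against 7.66%. CACGTG, the E-box bound by MYC, was found for 1 of 16 and 3 of 14, against 7.26%. None of these 3 was found for the 4 other enzymes. These matches describe letters and were not tested as binding sites.

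To examine the response to activin, the Activin libraries were compared with NC by edgeR's quasi-likelihood test over 20988 genes, with calls at a Benjamini-Hochberg adjusted p under 0.05. Of the 44 genes 5 rose and 11 fell. All 5 that rose were cytosolic synthetases. The fallers were 6 cytosolic synthetases, 4 mitochondrial ones and GATB. The members that rose made up 11.4%, close to the 9.58% of all genes tested. Those that fell made up 25%, beside 8.41% of all genes, and these shares were not compared by a test. At least 2-fold changes were called for 6 members, 3 in each direction, beside 11.4% of all genes in either direction. In bulk RNA, a change in each cell and a change in the share of cells that express a gene cannot be told apart.

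The median log2 fold change was -0.23 for the cytosolic synthetases (range -1.07 to 1.72), -0.50 for the mitochondrial ones (-1.10 to 0.16) and -0.32 for the other enzymes (-1.21 to 0.61), against 0.02 for all genes tested. Among the other enzymes, GATB, GATC, QRSL1 and MTFMT, which act on mitochondrial tRNA, lay below 0. PSTK and SEPSECS lay above 0, so the median of this class describes neither part. In 31 of the 44 members the Activin and NC libraries did not overlap in scaled counts, or 70.5%, beside 42.2% of the 20988 genes tested, with the shares called as above. Here and for all other shares, the genes tested were not matched to the members in level. The part of level in such differences was not tested. Without Activin 2 the cytosolic median was -0.083, and without both libraries that stood apart it was -0.077. Without NC 1 the median of the other enzymes was -0.10. Without both libraries that stood apart, 9 members rose and 20 fell, where 14.2% of all genes rose and 15.6% fell, so calls increased among all genes as well. With 1 library left out, the 16 calls became 9 without NC 1 and 21 without Activin 2, beside 9.33% and 18.7% of all genes, and lay between these for the other libraries.

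**Figure D1:**
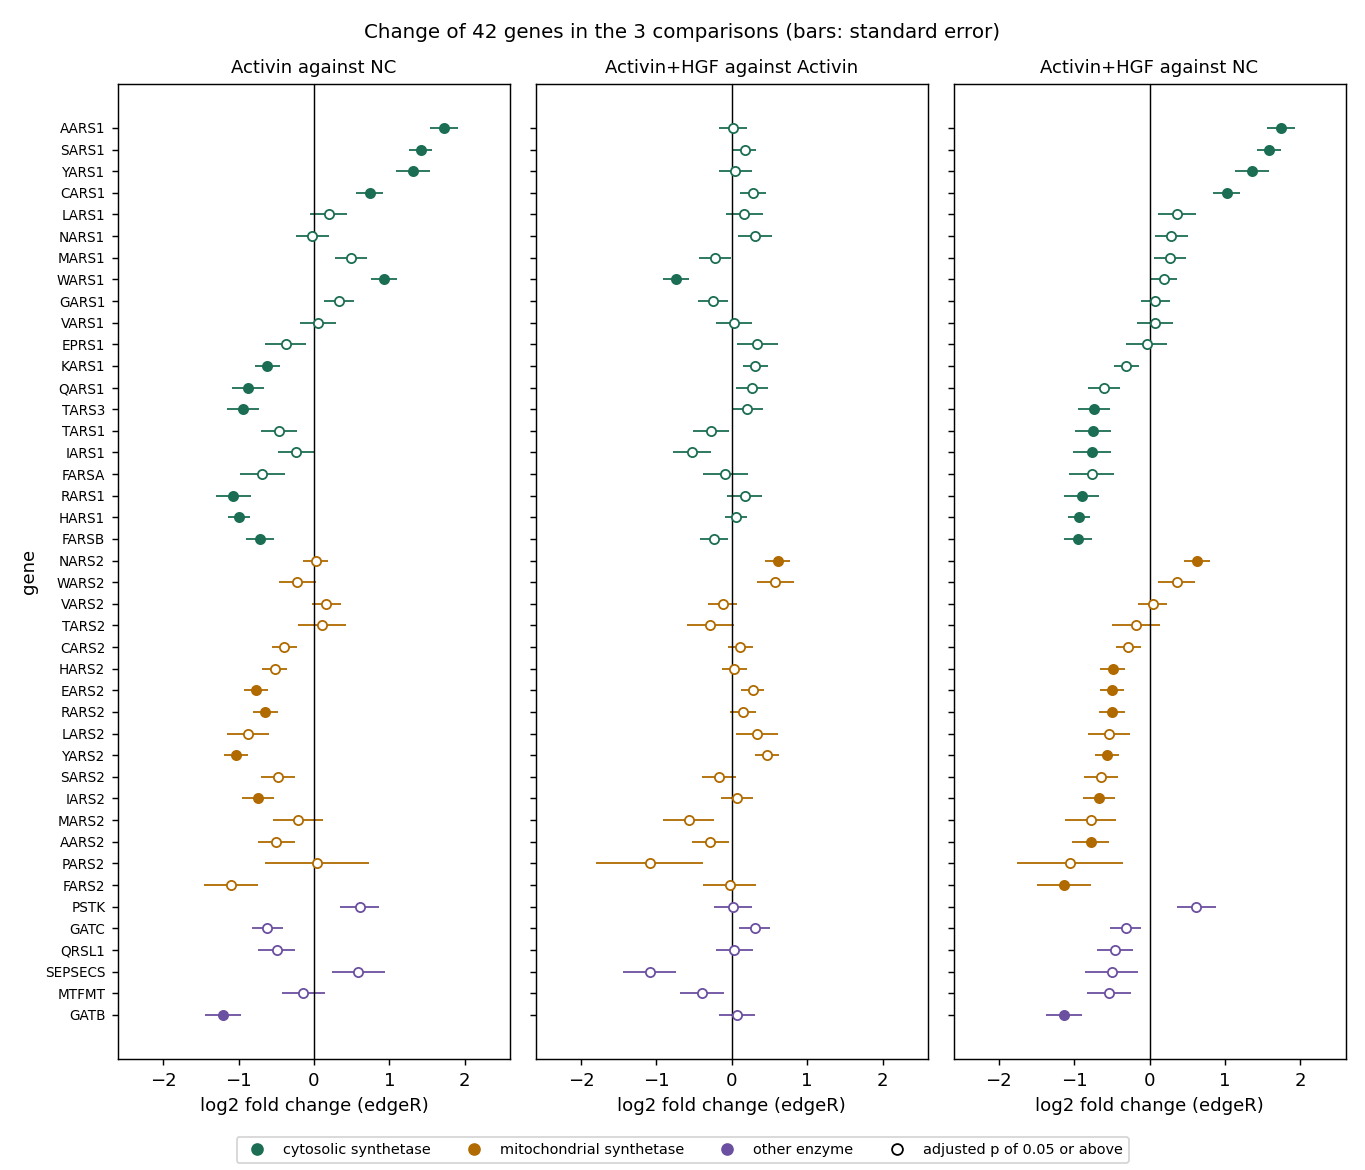
Log2 fold change from edgeR (horizontal axis) of 42 of the 44 genes (rows) in the 3 comparisons, with bars of 1 standard error, filled where the adjusted p was under 0.05. With activin, 5 cytosolic genes are filled to the right of 0, no mitochondrial gene is, and few genes are filled in the middle panel of Activin+HGF against Activin.

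AARS1, the alanyl-tRNA synthetase (ENSG00000090861, chromosome 16, 70251983 to 70289707, minus strand), rose most. Coordinates are those of the table, which for 44 of 44 members overlap the gene of the same identifier and strand in GENCODE 29 (GRCh38). AARS1 stood at 20.22, 22.12 and 20.79 FPKM in NC, at 71.82, 81.85 and 64.65 in Activin and at 44.62, 61.74 and 66.69 in Activin+HGF. Every treated library lay above every NC library. The log2 fold change was 1.72 ± 0.186 (SE, n = 3 per group, edgeR adjusted p = 0.000281) with activin, a 3.3-fold rise, and 1.74 ± 0.186 (adjusted p = 0.000143) with activin and HGF.

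SARS1, the seryl-tRNA synthetase (ENSG00000031698, chromosome 1, 109213918 to 109238182, plus strand), had the smallest standard error among the 5 risers. NC libraries held 37.87, 42.87 and 35.75 FPKM, Activin libraries 110.39, 107.6 and 109.78, and Activin+HGF libraries 90.05, 93.34 and 101.08. Again all treated libraries exceeded all NC libraries. Its log2 fold change was 1.41 ± 0.154 (edgeR adjusted p = 0.000288) with activin and 1.59 ± 0.155 (adjusted p = 8.62e-05) with activin and HGF, when it reached 3.0-fold. With a mean of 80.97 FPKM over the 9 libraries it was also the most abundant member, followed by AARS1 at 50.5 and VARS1 at 40.3 FPKM.

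YARS1, the tyrosyl-tRNA synthetase (chromosome 1, 32775237 to 32818153, minus strand), stood at 15.03, 16.98 and 13.34 FPKM in NC, 37.42, 48.71 and 31.45 in Activin and 29.79, 29.96 and 35.02 in Activin+HGF. Activin 2 was the highest library, yet without it the rise was still called (the log2 fold change over single libraries left out was 1.03 to 1.52, against 1.31 ± 0.225 with all, edgeR adjusted p = 0.00322). With activin and HGF it was 1.36 ± 0.225 (adjusted p = 0.00156).

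CARS1, the cysteinyl-tRNA synthetase (chromosome 11, 3000922 to 3057613, minus strand), held 8.88, 11.49 and 9.14 FPKM in NC, 17.74, 17.08 and 17.19 in Activin and 16.76, 16.35 and 15.53 in Activin+HGF. NC 2 was the highest control library and still lay below all treated ones. The rise was 0.74 ± 0.174 on the log2 scale with activin (edgeR adjusted p = 0.0155) and 1.02 ± 0.175 with activin and HGF (adjusted p = 0.00186). The call with activin was lost without NC 1 (0.69, adjusted p = 0.0607) or NC 3 (0.68, adjusted p = 0.0813), while that with activin and HGF was called without any single library.

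WARS1, the tryptophanyl-tRNA synthetase (ENSG00000140105, chromosome 14, 100333790 to 100376343, minus strand), followed another course. It stood at 10.7, 10.4 and 10.61 FPKM in NC, 21.18, 23.06 and 19.28 in Activin, and 7.62, 10.96 and 11.18 in Activin+HGF. The Activin libraries lay above all others, and the Activin+HGF libraries overlapped NC. Activin raised it by a log2 fold change of 0.93 ± 0.173 (edgeR adjusted p = 0.00496). From Activin to Activin+HGF it changed by -0.74 ± 0.173 (adjusted p = 0.023), and Activin+HGF differed from NC by 0.19 ± 0.172 (adjusted p = 0.427). The fall after HGF was lost without Activin+HGF 1 (-0.64, adjusted p = 0.0558) or Activin+HGF 2 (-0.77, adjusted p = 0.0567), and in the fit of the 2 groups (-0.78, adjusted p = 0.0779). A pair of genes known only by clone names overlaps WARS1, and the strand of the counting is not stated, so their reads cannot be told apart.

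**Figure D2:**
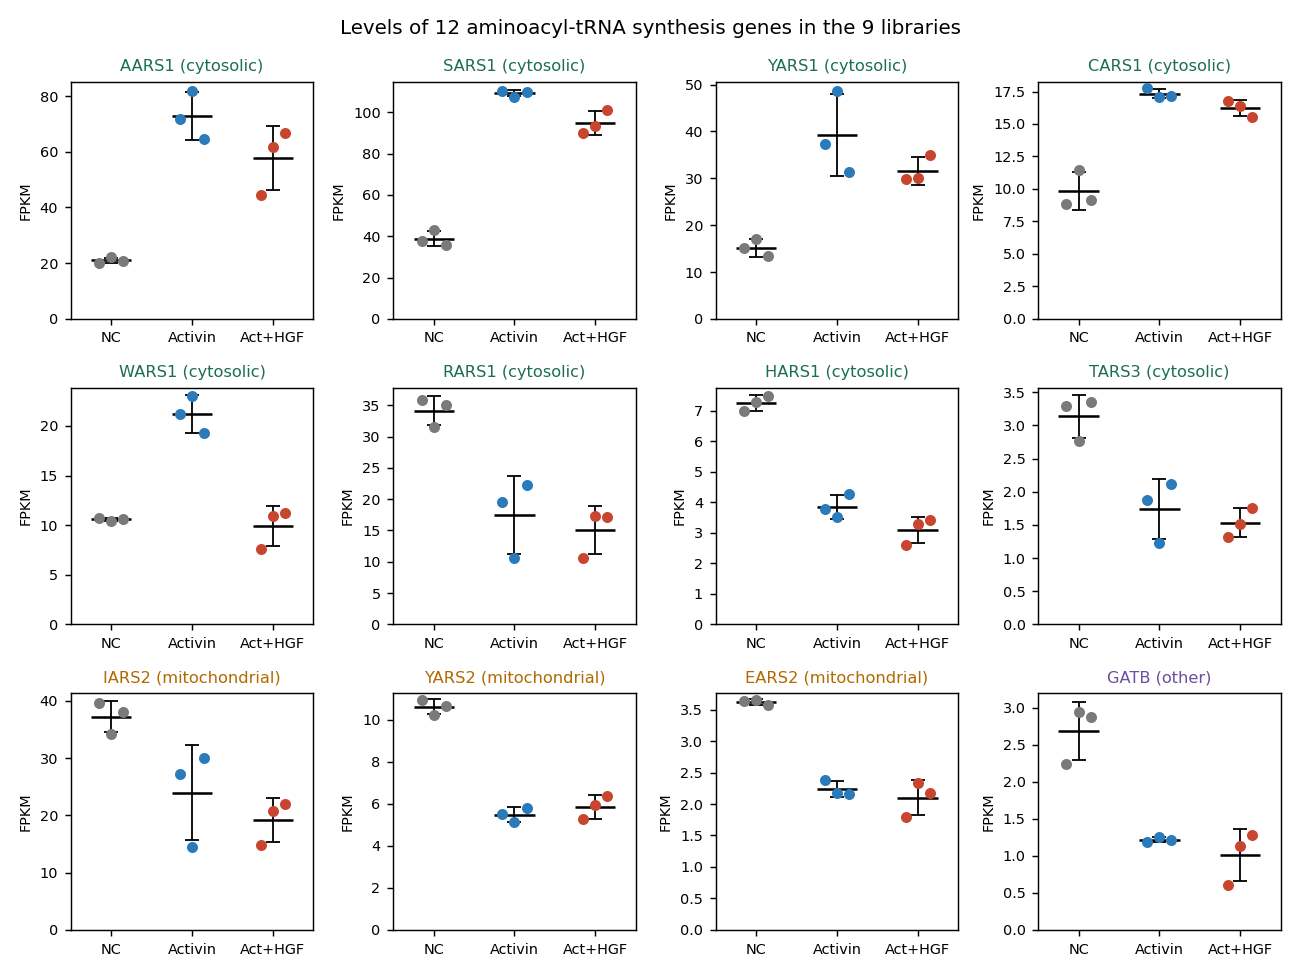
FPKM (vertical axes, from 0) of 12 genes in the 3 libraries of NC, Activin and Activin+HGF, with the mean and SD as bars. AARS1, SARS1, YARS1 and CARS1 stay above NC in both treated groups, WARS1 is high in Activin alone, and the 7 genes from RARS1 to GATB lie below NC in both treated groups.

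Among the cytosolic fallers, RARS1, the arginyl-tRNA synthetase (chromosome 5, 168486451 to 168519298, plus strand), changed most with activin. It stood at 35.89, 31.5 and 35.09 FPKM in NC, 19.59, 10.53 and 22.3 in Activin and 10.63, 17.35 and 17.16 in Activin+HGF. The lowest value of each treated group came from the library that stood apart, and no treated library reached NC. The log2 fold change was -1.07 ± 0.231 (edgeR adjusted p = 0.0101) with activin, -0.86 (adjusted p = 0.0108) without Activin 2, and -1.0 without NC 1 (adjusted p = 0.0537), about as large on fewer samples and no longer called. With activin and HGF it was -0.90 ± 0.23 (adjusted p = 0.0141).

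HARS1, the histidyl-tRNA synthetase (chromosome 5, 140673035 to 140691537, minus strand), was the steadiest of the fallers. NC libraries held 6.99, 7.28 and 7.5 FPKM, Activin libraries 3.78, 3.51 and 4.28, and Activin+HGF libraries 2.6, 3.29 and 3.41. The groups of treated libraries lay well below NC. The log2 fold change was -0.99 ± 0.146 with activin (edgeR adjusted p = 0.00145) and -0.93 ± 0.146 with activin and HGF (adjusted p = 0.00114), and both were called under every alternative and without any single library. HARS1 stands head to head with HARS2, its mitochondrial partner, whose log2 fold changes were -0.52 (adjusted p = 0.0521) and -0.49 (adjusted p = 0.0453). The gene spans share 108 bases and their promoter windows 184 bases.

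TARS3, the second cytosolic threonyl-tRNA synthetase and the least abundant cytosolic member, stood at 3.29, 2.77 and 3.35 FPKM in NC, 1.87, 1.23 and 2.11 in Activin and 1.32, 1.52 and 1.76 in Activin+HGF. No treated library reached NC. It fell by 0.94 ± 0.209 on the log2 scale with activin (edgeR adjusted p = 0.0114) and by 0.74 ± 0.208 with activin and HGF (adjusted p = 0.0221). The first call was lost without NC 1 (-0.88) or NC 3 (-0.90), and the second without NC 1 (-0.76), NC 3 (-0.69) or Activin+HGF 2 (-0.69).

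FARSA and FARSB encode the subunits of the cytosolic phenylalanyl-tRNA synthetase. FARSB held 11.9, 11.3 and 11.65 FPKM in NC, 8.19, 5.27 and 9.31 in Activin and 3.73, 5.54 and 5.54 in Activin+HGF. It lay below NC in all treated libraries, with log2 fold changes of -0.71 ± 0.188 (edgeR adjusted p = 0.0257) and -0.95 ± 0.189 (adjusted p = 0.00409). The first of these calls was lost without any 1 of NC 1, NC 2, NC 3 or Activin 1 (-0.66 to -0.71), and under library totals or either limma fit (-0.59 to -0.65, adjusted p of 0.0734 to 0.101). FARSA gave -0.69 ± 0.295 (adjusted p = 0.141) and -0.77 ± 0.295 (adjusted p = 0.0712), neither of which was called, and its libraries ranged from 11.29 to 27.89 FPKM within Activin+HGF. With activin and HGF FARSA was called under library totals, DESeq2, both limma fits and a replicate block (-0.78 to -1.14). It was also called without both libraries that stood apart (-0.49). Under the other settings, or with any 1 library left out, it was not called.

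QARS1, the glutaminyl-tRNA synthetase, and KARS1, the lysyl-tRNA synthetase, were called with activin and not with activin and HGF. QARS1 changed by -0.88 ± 0.215 (edgeR adjusted p = 0.0184) with activin and by -0.61 ± 0.214 (adjusted p = 0.0534) with activin and HGF. Without a single library the QARS1 call with activin was lost for NC 2, Activin 1 or Activin 3 (-0.70 to -0.76), and with activin and HGF QARS1 was called under library totals, both limma fits, DESeq2 and the fit of the 2 groups (-0.60 to -0.89). For KARS1 these values were -0.62 ± 0.167 (adjusted p = 0.028) and -0.31 ± 0.167 (adjusted p = 0.189). Its call with activin was lost without NC 1, NC 2, Activin 1 or Activin 3 (-0.49 to -0.58), and with activin and HGF it was called under library totals and both limma fits (-0.57 to -0.60). IARS1 and TARS1, the isoleucyl- and threonyl-tRNA synthetases, were called with activin and HGF and not with activin. IARS1 gave -0.23 (adjusted p = 0.58) and -0.76 (adjusted p = 0.0392), and TARS1 -0.47 (adjusted p = 0.212) and -0.75 (adjusted p = 0.0364). With 1 library left out, both calls held only without Activin+HGF 3 (-0.56 to -0.90 for IARS1 and -0.63 to -0.88 for TARS1 over all 6), and that of IARS1 was also lost without a low count filter (adjusted p = 0.0503). In the direct comparison of Activin+HGF with Activin none of these 4 genes was called (edgeR adjusted p of 0.181 to 0.467). Without Activin 2, QARS1 was called there at 0.55 (adjusted p = 0.03), IARS1 at -0.74 (adjusted p = 0.0368) and TARS1 at -0.52 (adjusted p = 0.0474).

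Both IARS1 and TARS1 carry the TTGCATCA letters, as do AARS1 and CARS1. IARS1 held 49.78, 46.06 and 44.92 FPKM in NC, 51.98, 25.96 and 50.74 in Activin and 14.07, 27.12 and 27.42 in Activin+HGF. In FPKM, Activin 2 lay far below the other Activin libraries, which stood slightly above NC, and without it the change with activin was -0.024. The 4 genes QARS1, KARS1, IARS1 and TARS1 were named here after their values were seen.

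Besides FARSA, 7 cytosolic members were called in no comparison of the fit first described, with all libraries. VARS1, the valyl-tRNA synthetase, gave 0.05 ± 0.239 with activin (edgeR adjusted p = 0.922) and LARS1 0.19 ± 0.249 (adjusted p = 0.657). Without Activin 2 VARS1 turned to -0.32 (adjusted p = 0.127), and LARS1 was called at 0.47 (adjusted p = 0.0219). LARS1, the leucyl-tRNA synthetase, ran from 3.66 FPKM in Activin 2 to 9.42 in Activin 3, a spread wider than its difference from NC. MARS1, the methionyl-tRNA synthetase, gave 0.49 ± 0.213 (adjusted p = 0.146), and 0.27 without Activin 2. MARS1 overlaps DDIT3 on the opposite strand, and DDIT3 rose by 5.22 on the log2 scale with activin (adjusted p = 6.77e-06), so the share of its reads that came from DDIT3 cannot be told apart. In all, another gene of the table overlaps 30 of the 44 members.

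The multisynthetase complex gives another way to read the cytosolic enzymes, adopted after the values were seen. With activin, 0 of its 8 synthetases (RARS1, QARS1 and KARS1 among them) rose and 3 fell, while of the 13 cytosolic members outside it 5 rose and 3 fell. With activin and HGF the counts were 0 and 2 of 8 inside and 4 and 4 of 13 outside. Among all genes tested, 9.58% rose and 8.41% fell with activin, and 16.4% and 15.0% with activin and HGF. For 8 genes, 0 risers is not far from these shares. The difference between these classes was not tested. AIMP1, AIMP2 and EEF1E1, which hold the complex together, gave 0 calls of 3 genes in each comparison, with log2 fold changes of -0.47 to 0.22 with activin.

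The mitochondrial synthetases stood lower than the cytosolic ones throughout. Their median level over the 9 libraries was 4.15 FPKM (1.31 to 26.8), against 29.3 (2.14 to 81.0) for the cytosolic set. Of the 17 genes, 0 rose and 4 fell with activin, and 1 rose and 8 fell with activin and HGF. The fallers made up 23.5% and 47.1%, beside 8.41% and 15.0% of all genes tested. Many of these calls were lost when 1 library was left out. With activin, those of YARS2 and EARS2 held in 6 of 6 such fits, IARS2 in 2 and RARS2 in 1. With activin and HGF, those of EARS2, IARS2 and RARS2 held in 0 of 6. AARS2, FARS2 and HARS2 held theirs in 1 and YARS2 in 2. Risers among all genes were 9.58% and 16.4%, so 0 of 17 with activin is not far from that share. No test compared these shares. The summed level of the 17 genes was 120.87 to 124.56 FPKM in NC, 79.39 to 96.19 in Activin and 55.69 to 80.08 in Activin+HGF. The treated libraries lay below NC without overlap, and for the cytosolic set they did not, with 528.9 to 569.54, 609.23 to 665.08 and 428.2 to 563.76 FPKM. FPKM values are not adjusted for library composition as the tested counts are, and the Activin+HGF libraries had the lowest scaling factors (0.783 to 0.926), so their FPKM read low beside their scaled counts.

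YARS2, the mitochondrial tyrosyl-tRNA synthetase, fell most among the called mitochondrial genes with activin. It stood at 10.94, 10.23 and 10.64 FPKM in NC, 5.52, 5.12 and 5.82 in Activin and 5.25, 5.94 and 6.37 in Activin+HGF. All treated libraries lay below NC. In CPM (counts scaled by TMM and relative to the library's depth) the NC libraries stood at 25.55, 25.03 and 25.51, the Activin libraries at 11.8, 12.9 and 12.6, and the Activin+HGF libraries between them at 17.2, 16.4 and 18.0. The difference between the treated groups was 0.47 (edgeR adjusted p = 0.0784). The log2 fold change was -1.03 ± 0.16 with activin (edgeR adjusted p = 0.00197) and -0.56 ± 0.159 with activin and HGF (adjusted p = 0.0223). The first was the only called mitochondrial change of at least 2-fold in that comparison, FARS2 at -1.10 not being called. The second call was lost without NC 1, NC 2, NC 3 or Activin+HGF 2 (-0.53 to -0.61 over single libraries left out). YARS2 overlaps 4 other genes of the table.

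EARS2, the mitochondrial glutamyl-tRNA synthetase, was tightly spaced within its groups, at 3.63, 3.66 and 3.57 FPKM in NC, 2.38, 2.17 and 2.16 in Activin and 1.79, 2.33 and 2.18 in Activin+HGF. It fell by 0.77 ± 0.158 on the log2 scale with activin (edgeR adjusted p = 0.00804), a call that held without any single library. With activin and HGF it gave -0.49 ± 0.158 (adjusted p = 0.0361), which was lost whenever 1 of the 6 libraries was left out (-0.46 to -0.55), as well as without a low count filter (-0.51, adjusted p = 0.0754).

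IARS2 and RARS2, the isoleucyl and arginyl enzymes of the organelle, were with HARS2 the most abundant mitochondrial members. IARS2 held 39.62, 34.2 and 37.97 FPKM in NC, 27.24, 14.53 and 30.06 in Activin and 14.85, 20.69 and 22.05 in Activin+HGF. Its lowest Activin and Activin+HGF values came from the libraries that stood apart, and all treated values lay below NC. It gave -0.74 ± 0.215 (edgeR adjusted p = 0.0378) and -0.67 ± 0.215 (adjusted p = 0.0373). RARS2 gave -0.64 ± 0.17 (adjusted p = 0.0257) and -0.50 ± 0.17 (adjusted p = 0.0473). The calls of both genes with activin and HGF were lost whenever 1 library was left out, at -0.58 to -0.76 for IARS2 and -0.48 to -0.58 for RARS2. With activin they were lost without NC 1, NC 2, NC 3 or Activin 1, and RARS2 also without Activin 3 (-0.53 to -0.86 for IARS2 and -0.53 to -0.68 for RARS2 over all 6). They were also lost under library totals and both limma fits (-0.64 to -0.70 for IARS2 and -0.51 to -0.57 for RARS2), and for IARS2 in the fit of the 2 groups (-0.73). The call of RARS2 with activin and HGF was lost without a low count filter (-0.51, adjusted p = 0.0824).

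FARS2, the mitochondrial phenylalanyl-tRNA synthetase, was the least abundant mitochondrial member, at 2.03, 2.09 and 2.21 FPKM in NC, 0.86, 1.28 and 0.91 in Activin and 0.4, 0.74 and 1.25 in Activin+HGF. All treated libraries lay below NC. It gave -1.10 ± 0.358 with activin (edgeR adjusted p = 0.057) and -1.13 ± 0.358 with activin and HGF (adjusted p = 0.035), and with activin it was called without Activin 2 (-1.40, adjusted p = 0.0355). The call with activin and HGF held in 1 of 6 fits that left out 1 library, the one without Activin+HGF 3 (-0.85 to -1.59 over the 6). AARS2, the alanyl enzyme, gave -0.78 ± 0.243 with activin and HGF (adjusted p = 0.0327), and it and HARS2 were each called in 1 of 6 such fits, those without Activin+HGF 2 for AARS2 (-0.63 to -0.97 over the 6) and HARS2 (-0.41 to -0.63). HARS2 was not called without a low count filter (-0.50, adjusted p = 0.0791).

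NARS2, the mitochondrial asparaginyl-tRNA synthetase, was the only mitochondrial member to rise. In CPM it stood at 21.5, 19.6 and 24.0 in NC, 23.6, 19.6 and 22.8 in Activin and 33.1, 31.1 and 36.6 in Activin+HGF. The Activin+HGF libraries lay above the other 6. The log2 fold change was 0.61 ± 0.17 against Activin (edgeR adjusted p = 0.0415) and 0.63 ± 0.17 against NC (adjusted p = 0.018). In FPKM the libraries read 5.32 to 7.55 in Activin and 6.88 to 8.83 in Activin+HGF and overlapped. Against Activin the call held only without Activin 2 among the fits that left out 1 library (0.53 to 0.66), and against NC it was lost without NC 1 (0.58), NC 2 (0.52) or Activin+HGF 3 (0.56). The calls were also lost under library totals and both limma fits, where the change was 0.25, 0.23 and 0.20 against Activin (adjusted p of 0.387 to 0.399) and 0.36, 0.33 and 0.29 against NC (adjusted p of 0.192 to 0.194). Against Activin it was lost as well without a low count filter (0.61, adjusted p = 0.0772) and in the fit of the 2 groups (0.57, adjusted p = 0.14).

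PARS2, the mitochondrial prolyl-tRNA synthetase, had the largest standard error of all members. It stood at 5.32, 4.91 and 4.84 FPKM in NC, 5.03, 6.83 and 4.22 in Activin and 0.14, 2.9 and 3.15 in Activin+HGF. The first Activin+HGF library, with 29 counts, lay far below the other two. The change against NC was -1.05 ± 0.704 (edgeR adjusted p = 0.287), and -0.51 without that library, and PARS2 was named after its values were seen.

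The 6 other enzymes serve special routes. GATB, GATC and QRSL1 form the amidotransferase that makes mitochondrial glutaminyl-tRNA, MTFMT formylates the mitochondrial initiator tRNA, and PSTK and SEPSECS make selenocysteinyl-tRNA. GATB stood at 2.24, 2.94 and 2.88 FPKM in NC, 1.19, 1.25 and 1.22 in Activin and 0.61, 1.14 and 1.28 in Activin+HGF. All treated libraries lay below NC, and the log2 fold change was -1.21 ± 0.242 (edgeR adjusted p = 0.00707) with activin and -1.14 ± 0.241 (adjusted p = 0.00573) with activin and HGF. GATC and QRSL1, its partner subunits, gave -0.62 ± 0.204 (adjusted p = 0.0606) and -0.49 ± 0.243 (adjusted p = 0.197) with activin and were not called, and MTFMT gave -0.14 ± 0.287 (adjusted p = 0.799).

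PSTK, at 0.36 to 0.83 FPKM the lowest of all members, gave 0.61 ± 0.258 (edgeR adjusted p = 0.135) with activin and 0.62 ± 0.258 (adjusted p = 0.0917) with activin and HGF. SEPSECS ranged from 1.12 to 3.97 FPKM within Activin, with Activin 2 the lowest, and from 0.82 to 1.12 in Activin+HGF. Its changes were 0.59 ± 0.35 (adjusted p = 0.293) with activin and -1.09 ± 0.354 (adjusted p = 0.0683) from Activin to Activin+HGF. Without Activin 2 both were called, at 0.93 (adjusted p = 0.0195) and -1.43 (adjusted p = 0.00387), while without Activin 3 they were 0.31 (adjusted p = 0.643) and -0.85 (adjusted p = 0.19).

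Cytosolic and mitochondrial enzymes were then set side by side by amino acid. Matching by name gave 16 such pairs for 15 amino acids, FARSA and FARSB both being set against FARS2. EPRS1, the cytosolic enzyme for glutamate and proline, was missed by this matching and is not in the counts below. With activin it gave -0.38 (edgeR adjusted p = 0.396), beside EARS2 at -0.77 and PARS2 at 0.04. With activin and HGF it gave -0.03 (adjusted p = 0.94), beside -0.49 and -1.05. The cytosolic gene was the more abundant in FPKM in 15 of 16 pairs, HARS1 and HARS2 being the exception. With activin the cytosolic change was the greater in 11 pairs, with a median difference of 0.52 on the log2 scale (range -0.57 to 2.34). With activin and HGF against NC it was the greater in 10 pairs, with a median difference of 0.27 (-0.57 to 2.52).

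The widest pairs were those of the risers. YARS1 rose by 1.31 while YARS2 fell by 1.03 on the log2 scale with activin, and both were called. AARS1 at 1.72 stood beside AARS2 at -0.50 (edgeR adjusted p = 0.191), SARS1 at 1.41 beside SARS2 at -0.48 (adjusted p = 0.175), CARS1 at 0.74 beside CARS2 at -0.39 (adjusted p = 0.13), and WARS1 at 0.93 beside WARS2 at -0.22 (adjusted p = 0.596). The opposite order was seen in 5 pairs with activin. TARS1 and TARS2 stood at -0.47 and 0.10, the latter at -0.089 without NC 3. HARS1 at -0.99 stood beside HARS2 at -0.52. RARS1 and RARS2 both fell, by 1.07 and 0.64. In the valine and asparagine pairs the difference was -0.11 and -0.04. The differences within pairs were not tested.

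**Figure D3:**
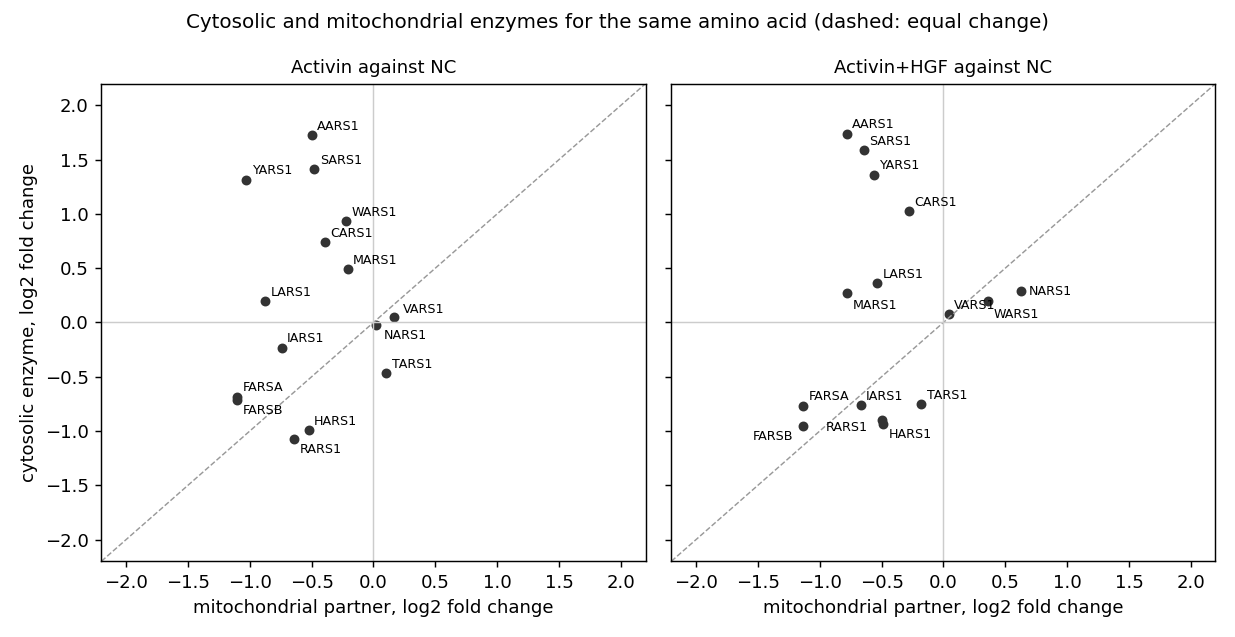
Log2 fold change of each cytosolic synthetase (vertical axis) against that of its mitochondrial partner (horizontal axis) in 15 of the 16 pairs, labelled by the cytosolic gene, for Activin against NC (left) and Activin+HGF against NC (right). Both panels share the NC libraries. AARS1, SARS1, YARS1 and CARS1 lie high above the dashed line of equal change in both panels, and WARS1 in the left panel alone.

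In each library the ratio of the median cytosolic to the median mitochondrial FPKM was 5.97, 6.73 and 6.37 in NC, 4.93, 5.01 and 6.37 in Activin and 9.36, 8.88 and 8.28 in Activin+HGF. By medians the Activin+HGF libraries were the highest and did not overlap the others. The ratio of the summed FPKM of the classes ordered the groups otherwise. It was 4.48, 4.68 and 4.38 in NC, 6.85, 7.67 and 6.97 in Activin and 7.69, 6.84 and 7.04 in Activin+HGF. By sums both treated groups lay above NC and overlapped each other, so the place of the Activin libraries depended on the summary used. No test is given, since a two-sided exact permutation test of groups of 3 cannot go below p = 0.1.

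To examine HGF given after activin, Activin+HGF was compared with Activin. Of the 44 genes only NARS2 rose and only WARS1 fell, 2.27% in each direction, against 7.41% and 5.45% of all genes tested. No member was called at 2-fold or more, beside 8.09% of all genes. At an unadjusted p under 0.05 there were 6 members, and DESeq2 called 5. The class medians were 0.05 for the cytosolic, 0.03 for the mitochondrial and 0.02 for the other enzymes, with -0.04 for all genes. Scaled by library totals alone, these medians turned to -0.28, -0.30 and -0.32, while that of all genes moved to -0.38, and 0 members rose and 3 fell. Groups did not overlap in 10 members, or 22.7%, beside 32.7% of all genes. Without both libraries that stood apart, 7 members rose and 5 fell, where 15.1% of all genes rose and 11.8% fell. Without Activin 2 alone 3 rose and 4 fell, where 20.5% of all genes were called. A p above the threshold does not show that a member stayed level between these groups.

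Against NC, the Activin+HGF libraries showed 5 risers and 15 fallers among the 44, or 11.4% and 34.1%, where 16.4% of all genes tested rose and 15.0% fell. Changes of at least 2-fold were called for 7 members (AARS1, SARS1, YARS1 and CARS1 up, GATB and FARS2 among those down), beside 21.5% of all genes. Here too the shares were not compared by a test. The median was -0.03 for the cytosolic, -0.54 for the mitochondrial and -0.48 for the other enzymes, with -0.03 for all genes. By library totals alone all genes moved to -0.30, the cytosolic set to -0.31 and the mitochondrial set to -0.79. The groups did not overlap in 32 members, or 72.7%, beside 53.8% of all genes. Without both libraries that stood apart, 8 members rose and 20 fell, where 19.6% and 19.0% of all genes did. Leaving out 1 library brought the 20 calls to 10 without NC 1, NC 2 or NC 3. They became 12 without Activin+HGF 1 or Activin+HGF 2 and 14 without Activin+HGF 3. Calls among all genes decreased too (19.3% to 21.6% without an NC library). The fallers were 6, 6 and 5 of the 44 without NC 1, NC 2 or NC 3, where 9.38%, 10.2% and 8.58% of all genes fell. Without Activin+HGF 1, 2 or 3 they were 7, 7 and 10, where 11.8%, 10.6% and 11.8% fell. In each of these fits the gap between members and all genes was smaller than with all libraries.

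The comparisons with NC share the NC libraries. In both, 13 members were called in the same direction, or 29.5%, beside 12.5% of all genes tested, and the shared libraries enter both shares. These were 4 risers, AARS1, SARS1, YARS1 and CARS1, and 9 fallers. Of the 44 members 23 were called in at least 1 comparison and 21 in none.

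**Figure D4:**
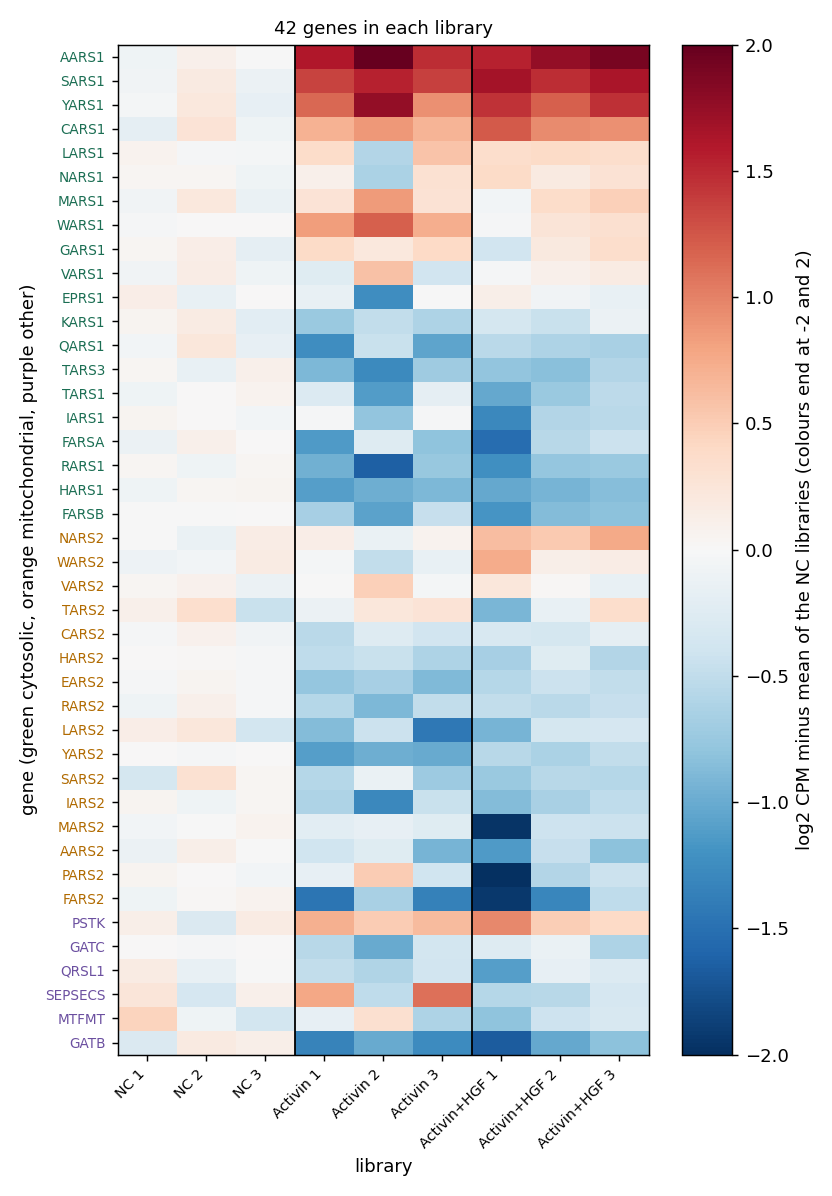
Log2 CPM (TMM-scaled) minus the mean of the NC libraries for 42 of the 44 genes (rows) in the 9 libraries (columns), on a colour scale that ends at -2 and 2. The rows AARS1, SARS1, YARS1 and CARS1 are red in all 6 treated libraries, most mitochondrial rows are blue there, and Activin 2 and Activin+HGF 1 differ visibly from the libraries beside them.

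Other genes of the same processes were read from lists of known members. Of all genes tested, 9.58% rose and 8.41% fell with activin, and 16.4% and 15.0% with activin and HGF. From Activin to Activin+HGF the shares were 7.41% and 5.45%. No list was compared with these shares by a test. Of 24 genes of the amino acid response, to which ATF4 targets such as ASNS belong, 15 rose and 1 fell with activin (median log2 fold change 1.20), and 18 rose and 1 fell with activin and HGF (median 1.54). ASNS, the asparagine synthetase, stood at 20.12, 22.56 and 24.0 FPKM in NC, 130.34, 120.87 and 125.51 in Activin and 113.7, 132.77 and 124.36 in Activin+HGF. Its libraries separated fully from NC, with a log2 fold change of 2.42 ± 0.151 (edgeR adjusted p = 1.2e-05) with activin. STC2, a secreted glycoprotein, and DDIT3, the stress transcription factor CHOP, rose by 2.77 (adjusted p = 6.59e-06) and 5.22. From Activin to Activin+HGF 1 gene of the list rose and 1 fell, 4.17% in each direction and no more than among all genes.

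Of 10 interferon-induced genes, 8 rose and 0 fell with activin (median 2.48), and 1 rose and 8 fell from Activin to Activin+HGF (median -2.35). Several of the 10 stayed at or below 1.19 FPKM in every library, the lowest at or below 0.09. These counts and medians include them. Among all genes tested, 9.58% rose and 8.41% fell with activin, and 7.41% and 5.45% from Activin to Activin+HGF. Between Activin+HGF and NC 2 rose and 4 fell, beside 16.4% and 15.0% of all genes. IFIT1 stood at 2.24, 1.8 and 1.91 FPKM in NC, 19.47, 17.0 and 23.97 in Activin and 0.57, 0.6 and 0.66 in Activin+HGF. ISG15, a ubiquitin-like protein, was at 37.77 to 44.6, 539.57 to 768.06 and 131.65 to 159.32 FPKM. WARS1 was likewise highest in Activin, and any link between it and these genes was not tested.

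Of 11 mitochondrial translation factors, 0 rose and 1 fell with activin and 0 rose and 3 fell with activin and HGF. The fallers made up 9.09% with activin, close to the 8.41% of all genes tested, and 27.3% with activin and HGF, beside 15.0%. Of 11 genes for maturation and modification of mitochondrial tRNA, 0 rose and 5 fell with activin (median -0.60), and 1 rose and 4 fell with activin and HGF (median -0.75). Here the fallers made up 45.5% and 36.4%, beside the same shares of all genes. Among these, TRMU, which thiolates mitochondrial tRNAs, stood at 5.11, 4.62 and 4.65 FPKM in NC, 2.85, 2.76 and 2.74 in Activin and 1.9, 2.25 and 2.17 in Activin+HGF. The treated libraries all lay below NC (log2 fold change -0.86 ± 0.151 with activin, edgeR adjusted p = 0.0038). ELAC2, which cuts the 3′ ends of tRNA precursors, fell by 1.21 ± 0.216 on the log2 scale (adjusted p = 0.00395).

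Of 5 cytosolic elongation factors, which bring the charged tRNA to the ribosome or move it on, 0 rose and 1 fell with activin, and 3 rose and 0 fell from Activin to Activin+HGF. Among all genes tested, 8.41% fell with activin and 7.41% rose from Activin to Activin+HGF. EEF1A1, the carrier of charged tRNA, held 2648.76, 2371.2 and 2735.2 FPKM in NC, 2377.31, 1921.86 and 2620.91 in Activin and 4213.51, 3100.77 and 3094.62 in Activin+HGF. The Activin+HGF libraries exceeded the others, and the rise from Activin was 1.00 ± 0.191 on the log2 scale (edgeR adjusted p = 0.0117).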

How the data were processed

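Total RNA of 9 HCT116 libraries was depleted of ribosomal RNA and sequenced as read pairs. The submitters' processing notes name cutadapt 1.9, HISAT2 2.0.4 and StringTie 1.3.4d. The genome build and the strand setting of the counting are not given in the sources used here. The authors deposited 1 table with raw read counts per gene, not normalized, and with FPKM values that the authors had normalized to depth and gene length. No columns of other samples were present, and the authors' own comparisons were not used.

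Groups followed the treatment labels. For Activin+HGF the deposited column names give only the cell line, so that group rests on the sample descriptions. Counts were filtered (filterByExpr, minimum count 10), scaled by TMM and fitted with edgeR 4.0.16 (glmQLFit, glmQLFTest) in R 4.3.3 with 1 mean per group over the 9 libraries. Of 33861 genes 20988 were tested, and p-values were adjusted by Benjamini-Hochberg over all of these. FPKM served for levels. The step from counts to FPKM differed by at most 1.09-fold between libraries for any member after scaling. Replicate pairs differed beyond sampling noise (61.5 to 281 chi-square units per degree of freedom), and each library was counted as 1 sample. This spread does not show that the libraries were separate cultures. Depth was 57453977 to 77016167 counts, and having 3 libraries in a group limits the precision.

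Alternatives were other scalings, no filter, DESeq2 1.42.0, limma 3.58.1 on log2(FPKM + 0.1) and log2(FPKM + 1), a block for replicate number, fits of only 2 groups, and libraries left out. The scripts were tested on simulated data. Promoters and figures used pandas 2.3.3, matplotlib 3.10.9 and numpy 2.4.6 under Python 3.11.15.

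The members, classes and gene lists were chosen with earlier results of these data known, and no set test was made. Named members were those called at 2-fold or more, the 3 largest called rises and falls of each class and comparison, the partners of the former, WARS1 and WARS2, and the 3 highest and lowest levels of each class. Of each list, at most 3 genes with the smallest p were named. PARS2, EPRS1, MARS1, QARS1, KARS1, IARS1, TARS1 and TARS2 were named after their values were seen. A few members chosen by it are left out of the text and figures.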

Additional observations from a re-analysis of the deposited data

How the results depend on the processing

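The calls for AARS1, SARS1, YARS1, HARS1 and GATB in both comparisons with NC, for WARS1, EARS2 and YARS2 with activin, and for CARS1, FARSB and RARS1 with activin and HGF were made under all 8 other settings and without any 1 library. No called change turned its sign under any setting that was run. Of the changes not called, VARS1 with activin turned to -0.32 without Activin 2 and -0.31 without both libraries that stood apart, MTFMT to 0.16 without NC 1 and 0.098 without Activin 3, and TARS2 to -0.089 without NC 3 (-0.32 to 0.26, -0.41 to 0.16 and -0.089 to 0.33 over single libraries left out). Under library totals, limma on log2(FPKM + 0.1) and limma on log2(FPKM + 1), KARS1 and QARS1 turned from Activin to Activin+HGF to -0.026, -0.068 and -0.066 and to -0.051, -0.065 and -0.063, and WARS1 against NC after HGF to -0.065, -0.11 and -0.10. The number of members called with activin was 16, and became 29 without both libraries that stood apart (29.7% of all genes, against 18.0% with all libraries), 6 at 2-fold or more and 8 at an adjusted p under 0.01, with 9 to 21 when 1 library was left out. From Activin to Activin+HGF it was 2, and became 1 without a low count filter, 5 by DESeq2, 0 with only the 2 groups compared, 12 without both libraries (26.9% of all genes, against 12.9%), and 0 at 2-fold or at an adjusted p under 0.01, with 0 to 7 when 1 library was left out. Against NC after HGF it was 20, and became 28 without both libraries (38.6% of all genes, against 31.4%), 25 under library totals and both limma fits, 23 by DESeq2, 7 at 2-fold and 8 at an adjusted p under 0.01, with 10 to 14 when 1 library was left out. A fit without 1 library rests on fewer samples. Beside the counts of 0 from edgeR, 6 members had an unadjusted p under 0.05 with all libraries.

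The replicate numbers showed no pairing (correlations of deviations between libraries of the same number from -0.0563 to 0.0787). Fitted with a replicate block, 16, 1 and 19 members were called in the 3 comparisons, against 16, 2 and 20. KARS1 with activin, NARS2 from Activin to Activin+HGF, and EARS2, HARS2, IARS1 and RARS2 against NC after HGF lost their calls under the block, and FARSA, QARS1 and SARS2 against NC after HGF gained one.

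The class medians moved with the setting. Library totals changed the scaling alone, while the limma fits also changed the unit, the pseudocount and the model. From Activin to Activin+HGF the medians under library totals, limma on log2(FPKM + 0.1) and limma on log2(FPKM + 1) were -0.28, -0.29 and -0.28 for the cytosolic set, -0.30, -0.35 and -0.26 for the mitochondrial set and -0.32, -0.35 and -0.22 for the other enzymes, where all genes had -0.38, -0.32 and -0.13. Against NC after HGF they were -0.31, -0.33 and -0.32 for the cytosolic set and -0.79, -0.81 and -0.72 for the mitochondrial set, with all genes at -0.30, -0.26 and -0.09, and the other enzymes were at -0.74 and -0.76 under library totals and log2(FPKM + 0.1). With activin the mitochondrial median was -0.35 under log2(FPKM + 1). With 1 library left out, the cytosolic, mitochondrial and other medians ran from -0.32 to -0.083, -0.53 to -0.35 and -0.42 to -0.10 with activin, from -0.066 to 0.11, -0.089 to 0.13 and -0.089 to 0.052 from Activin to Activin+HGF, and from -0.14 to -0.0062, -0.63 to -0.46 and -0.60 to -0.38 against NC after HGF. The cause of these shifts was not tested. Depth does not separate reads of overlapping genes, and the PARS2 value of Activin+HGF 1 rests on 29 counts.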
